A study of Rattus norvegicus with 12 samples.

Results

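The ventral hippocampus (VH) was compared with the dorsal hippocampus (DH) of Sprague-Dawley rats at postnatal day 14 (P14). The 4 P14 libraries, 2 of DH and 2 of VH, were taken from a series of 12 libraries in which the same regions were also sampled at P28 and P45. The hippocampus had been cut into dorsal, intermediate and ventral pieces along its long axis, each with the subfields from dentate gyrus and CA3 through CA2 and CA1 to subiculum, and the intermediate piece was left out. The labels name no transgene and no treatment, though their extraction text speaks of infected cells, and they do not say whether a library came from 1 animal or several, or whether the libraries numbered 1 and 2 came from separate animals. The p-values below therefore measure the spread between libraries, which may be technical. Of the 17933 RefSeq transcripts listed, 14259 were above 0 in at least 2 of the 12 libraries and were tested. The values are FPKM, fragments scaled by transcript length and by the fragments mapped in the library, and a difference is given as VH minus DH on the scale log2(FPKM + 1) with the standard error (SE) of the limma fit. On that scale the difference of a transcript near or below 1 FPKM is smaller than the ratio of its FPKM. A transcript was called at a Benjamini-Hochberg adjusted p under 0.05 over all transcripts tested and a fold change of FPKM + 1 above 1.5.

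The long axis of the rodent hippocampus is a functional gradient. The dorsal pole is tied to spatial memory and the ventral pole, through its links with the amygdala and hypothalamus, to emotion and stress responses. In the early postnatal weeks oligodendrocytes of the rat forebrain begin to wrap axons, granule neurons are still being added to the dentate gyrus, and interneurons and synapses mature. Oligodendrocyte precursors become premyelinating cells and then mature oligodendrocytes, which make myelin from a small set of abundant membrane proteins and lipids. In tissue RNA, fewer cells of a type and less RNA per cell cannot be told apart.

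At P14, 505 transcripts were called, 3.54% of those tested. VH was higher in 245 (1.72%) and lower in 260 (1.82%), which stand for 240 and 256 genes. The regions did not overlap in any of the 505, while over all transcripts both VH libraries lay above both DH libraries in 23.2% and below them in 22.7%. More than 2-fold differences numbered 108 toward VH and 83 toward DH, and more than 4-fold ones 12 and 6. The median difference over all transcripts was 0.0. Within each region the first library tended to be the more extreme of the pair. P14-VH-1 lay farther from DH than P14-VH-2 did in 201 of the 245 transcripts higher in VH and in 208 of the 260 lower ones, and P14-DH-1 lay farther from VH than P14-DH-2 did in 185 and 169. Its part in the results was not tested. Without P14-DH-1, 53 and 59 transcripts were called, without P14-DH-2 123 and 127, without P14-VH-1 83 and 91, and without P14-VH-2 269 and 301. A fit of only the 4 P14 libraries, with 2 residual degrees of freedom, called 0 in either direction in limma, where 380 and 383 passed at an unadjusted p under 0.05 with 1.5-fold. In the fit of all libraries 2.95% of transcripts were higher and 3.03% lower at an unadjusted p under 0.05 with 1.5-fold.

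**Figure D1:**
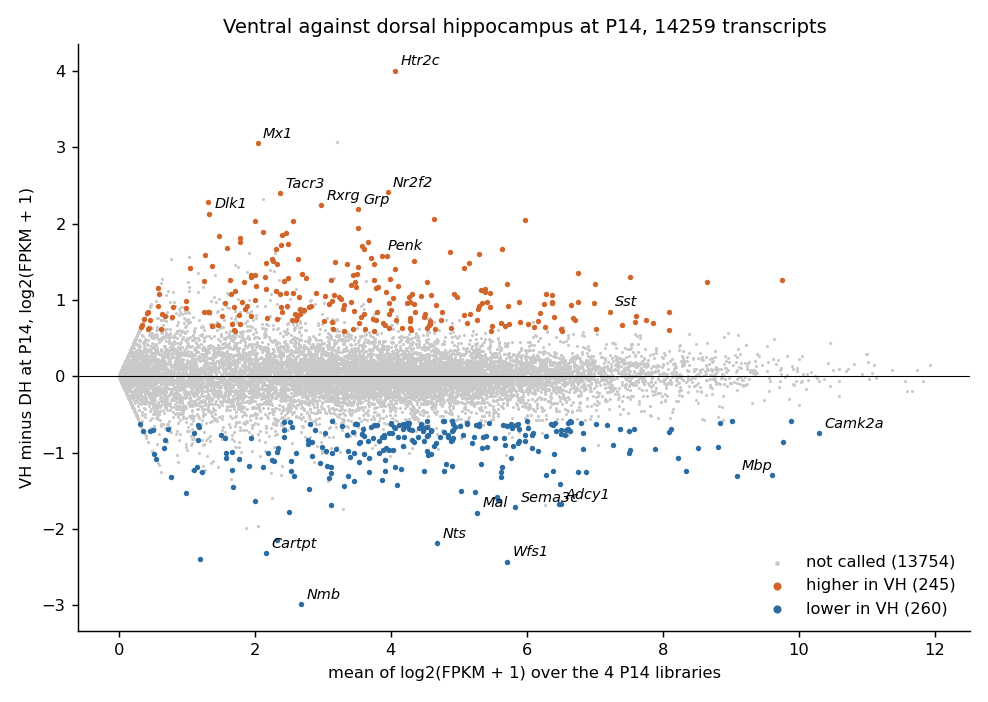
Each point is 1 of the 14259 transcripts, with the mean of log2(FPKM + 1) over the 4 P14 libraries on the horizontal axis and VH minus DH at P14 on the vertical axis. The 245 transcripts called higher in VH are orange and the 260 called lower are blue. Mbp and Camk2a lie at the abundant end, and Htr2c is the highest point.

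The FPKM of a P14 library sums to between 511388 and 520944, and 4364 to 4487 transcripts per P14 library are listed at 0. A listed 0 can be a failed estimate, since Hprt1, a gene used by every cell, is at 0 in every library. The regional labels went with the markers used in the study. Cyp26b1 was at 9.81 and 9.17 FPKM in DH and 1.22 and 3.22 in VH, Cpne2 at 19.5 and 20.7 in DH and 73.3 and 46.0 in VH, and both were called. Of the reference genes, Actb was lower in VH by a small margin (−0.25, SE 0.06, adjusted p = 0.0423) and Gapdh differed by 0.16 (SE 0.07, adjusted p = 0.288), neither by 1.5-fold.

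Toward DH the 12 genes that differed most were Nmb, Wfs1, Acyp1, Cartpt, Nts, Cyp1b1, Mal, Cyp26b1, Sema3c, Hr, Adcy1 and Cadm2. Nmb encodes the peptide neuromedin B and was at 19.4 and 15.1 FPKM in DH and 0.951 and 1.67 in VH, a difference of −2.99 (SE 0.35, adjusted p = 0.0048). Wfs1 encodes wolframin, an endoplasmic reticulum membrane protein that marks dorsal CA1 neurons, and was at 127 and 114 FPKM in DH and 20.3 and 22.7 in VH. Cyp1b1, a cytochrome P450 oxidase, was at 12.1 and 7.48 FPKM in DH and 1.29 and 1.49 in VH. These 3 genes did not overlap between regions, and for Nmb the lowest DH library held 15.1 FPKM against 1.67 in the highest VH library. Hr encodes hairless, a nuclear corepressor that binds the thyroid hormone receptor, and was at 15.9 and 13.3 FPKM in DH and 3.41 and 4.34 in VH (−1.68, SE 0.15, adjusted p = 0.00286). Cadm2, a synaptic cell adhesion molecule, was at 167 and 148 FPKM in DH and 37.6 and 63.1 in VH (−1.67, SE 0.22, adjusted p = 0.00642). The Acyp1 transcript NM_001199168 was at 2.92 and 6.07 FPKM in DH and under 1 in VH (−2.40), but with the 3 Acyp1 transcripts summed the difference was −0.15 (adjusted p = 0.775).

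Toward VH the 12 largest were Htr2c, Mx1, Nr2f2, Tacr3, Dio3, Rxrg, Grp, Dlk1, Hap1, Cpne7, Nppa and Plagl1. Htr2c, the serotonin 2C receptor, was at 2.16 and 4.48 FPKM in DH and 83.4 and 51.7 in VH. Cpne7, a calcium-dependent phospholipid-binding protein, was at 26.1 and 34.0 FPKM in DH and 149 and 108 in VH (2.05, SE 0.18, adjusted p = 0.00286). Hap1 encodes huntingtin-associated protein 1 and was at 9.59 and 13 FPKM in DH and 68.4 and 36.2 in VH (2.06, SE 0.29, adjusted p = 0.00868). The lower VH library held more than the higher DH library in each. Several of the others were low in DH. Dio3, the deiodinase that inactivates thyroid hormone, was at 0.26 FPKM and a listed 0 in DH and 6.32 and 3.05 in VH (2.28, SE 0.27, adjusted p = 0.0048). Dlk1, a Delta-like membrane protein, was at 0.245 and 0.146 FPKM in DH and 5.76 and 3.05 in VH (2.13, SE 0.41, adjusted p = 0.0237). Plagl1, a zinc finger transcription factor, was at 1.49 and 0.586 FPKM in DH and 11.0 and 4.50 in VH (2.03, SE 0.38, adjusted p = 0.0224). The Mx1 transcript NM_001271061, from an interferon-induced GTPase, was at 0.000243 and 1.04 FPKM in DH and 12.1 and 9.69 in VH.

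Genes of myelin and the mature oligodendrocyte made the most uniform group. Of 30 genes listed, 29 were tested, and 17 were called lower in VH against 1.82% of all transcripts, with none called higher and 0 higher at an unadjusted p under 0.05 in limma. The difference was below 0 in all 29, where 48.6% of all transcripts were below 0, and both VH libraries lay below both DH libraries in 28, with Qdpr, which recycles a pterin cofactor, as the exception. The median difference of the list was −0.95, beside 0.0 over all transcripts. Summed over the 29 transcripts, the level was 3879 and 3052 FPKM in the DH libraries and 1290 and 1857 in the VH libraries. Both VH sums were below both DH sums, and in each region the duplicates were closer to each other than to the other region.

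Genes of structural proteins of compact myelin were among those lower in VH. Mbp, which binds the cytoplasmic faces of the membrane together, was at 952 and 763 FPKM in DH and 292 and 408 in VH (−1.30, SE 0.23, adjusted p = 0.0177). Mobp, a myelin-associated basic protein, was at 82.2 and 69.0 FPKM in DH and 25.8 and 37.1 in VH (−1.26, SE 0.18, adjusted p = 0.00964). In both genes the first DH library was the highest and the first VH library the lowest. Mal, a proteolipid that sorts cargo to the myelin membrane, had the largest difference of the list, from 79.1 and 62.9 FPKM in DH to 13.4 and 28.7 in VH (−1.79, SE 0.31, adjusted p = 0.0175). Cldn11 forms the tight junctions between myelin layers and was at 203 and 159 FPKM in DH and 61.4 and 91.8 in VH (−1.25, SE 0.21, adjusted p = 0.0161).

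Among the other genes called lower in VH were Mag, Mog and Fa2h, for the axonal surface, the outer surface and the lipids of myelin. Mag, an adhesion molecule on the membrane next to the axon, was at 148 and 111 FPKM in DH and 46.6 and 61.5 in VH (−1.24, SE 0.18, adjusted p = 0.00979). Mog, on the outermost lamella, was at 65.3 and 51.5 FPKM in DH and 24.2 and 37.3 in VH (−0.93, SE 0.19, adjusted p = 0.0307). Hapln2, a link protein of the matrix at nodes of Ranvier, was at 1.09 and 1.30 FPKM in DH and 0.122 and 0.159 in VH, close to the floor of these libraries. Fa2h, which hydroxylates the fatty acids of myelin lipids, was at 20.0 and 17.7 FPKM in DH and 6.27 and 8.50 in VH (−1.25, SE 0.17, adjusted p = 0.00689). Ermn, a cytoskeletal protein of oligodendrocytes, was at 25.2 and 19.9 FPKM in DH and 6.19 and 10.6 in VH (−1.36, SE 0.25, adjusted p = 0.0197). Myrf, the transcription factor that starts myelin gene expression, differed less, from 17.9 and 15.0 FPKM in DH to 10.4 and 11.4 in VH (−0.55, SE 0.13, adjusted p = 0.0438), and was short of 1.5-fold. Nfasc, which neurons also express, was listed by NM_001160314 (−0.22, adjusted p = 0.135), while another of its transcripts, NM_053909, was called lower at −0.77 (SE 0.11, adjusted p = 0.00858).

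The count of myelin calls depended on single libraries, and the direction much less. Without P14-DH-1 it was 0 of 29, without P14-DH-2 8, without P14-VH-1 4 and without P14-VH-2 16, and the number below 0 was 28, 29, 29 and 28. The list's median was −0.88, −1.09, −0.79 and −1.15 in the same order. At an unadjusted p under 0.05 and 1.5-fold, 22 of the 29 were lower in VH, against 3.03% of all transcripts.

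This regional difference was found at P14 and not at the later ages. At P28 and P45, 0 of the 29 transcripts were called in either direction, and 0 at an unadjusted p under 0.05 with 1.5-fold in limma, against 2.05% higher and 2.02% lower over all transcripts at P28 and 1.8% and 1.68% at P45. The median difference was −0.18 at P28 and 0.08 at P45. The summed level was 5803 and 5188 FPKM in DH and 5243 and 4277 in VH at P28, and 4209 and 3664 in DH and 4500 and 3461 in VH at P45, so the 2 regions overlapped at both. The change of the difference was tested for each transcript as the P14 difference minus the mean of the differences at P28 and P45. It was negative in 28 of the 29 and had an unadjusted p under 0.05 in 23, where 3.93% of all transcripts changed that way, and its median was −0.92. Against P28 alone 18 were the more negative and 1 the more positive at P14 at an unadjusted p under 0.05 (3.35% and 3.19% of all transcripts), and against P45 alone 23 and 0 (4.56% and 3.72%). None of the 29 passed at an adjusted p under 0.05, and the smallest was 0.24, for Gpr37. Mal changed by −1.77 and Mag by −1.20 (adjusted p = 0.322 and 0.266). All 17 myelin genes called at P14 were among the 100 transcripts lower in VH that were called at neither later age.

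**Figure D2:**
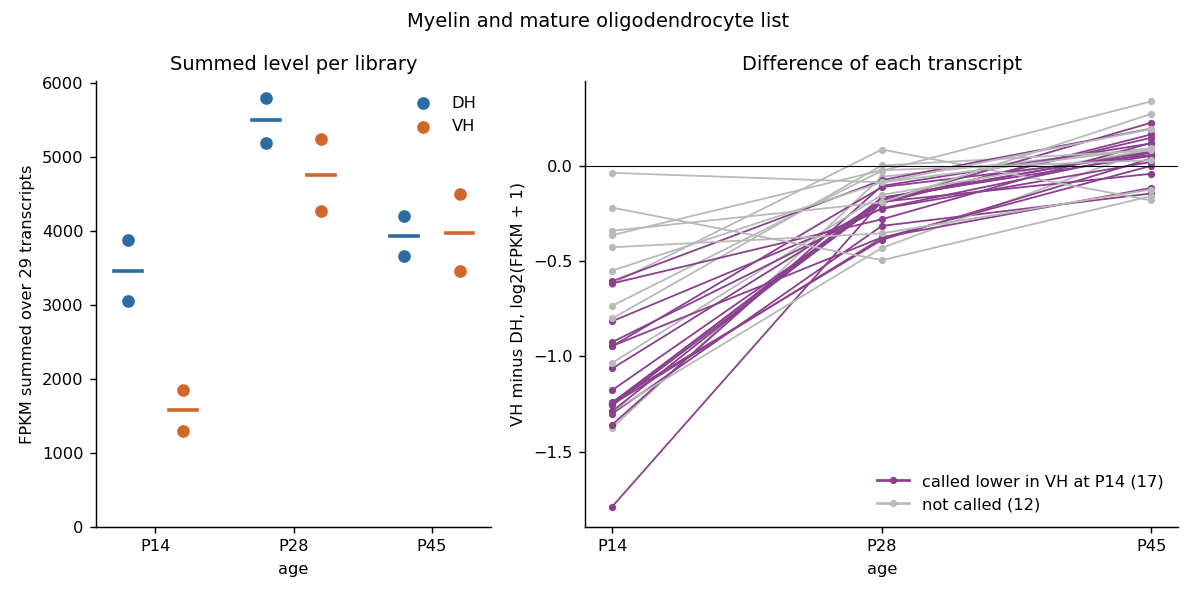
On the left, FPKM summed over the 29 transcripts of the myelin list in each library by age and region, with a line at the mean of the 2 libraries. On the right, VH minus DH of each of the 29 transcripts on the log2(FPKM + 1) scale at the 3 ages, with the 17 called at P14 in purple. At P14 the VH sums, 1290 and 1857 FPKM, lie below the DH sums, and at P28 and P45 the regions overlap.

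The promoters of the myelin genes were searched for ACAAAG, a core that SOX proteins such as the oligodendrocyte factor SOX10 bind, on both strands of the 300 bases from 250 before to 50 after the start of each gene (RefSeq, GRCr8). A promoter was given for 25 of the 29 genes, and 6 of them (24%) held the letters, as did 13.8% of those of the genes tested and 18.8% of all 33469 promoters in the table. Among the 17 genes called lower, 14 had a promoter and 5 held the letters, namely Cnp, Hapln2, Mag, Mbp and Mobp. Of the 11 promoters of genes not called only that of Opalin did. Over all called genes, 30 of 210 promoters of those lower in VH (14.3%) and 17 of 183 of those higher (9.29%) held the letters. A stretch of 138 bases of the Mobp promoter is printed because it held the letters 8 times, all on the minus strand, so that capitals mark CTTTGT. A match describes the sequence and is not a binding site.
Mobp, chr8:128746985-128747122, plus strand: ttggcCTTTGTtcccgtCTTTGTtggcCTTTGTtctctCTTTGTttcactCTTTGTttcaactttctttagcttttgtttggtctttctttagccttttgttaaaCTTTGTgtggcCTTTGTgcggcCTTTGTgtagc

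Genes of earlier stages of the oligodendrocyte lineage gave no call. Of 17 genes of precursors and premyelinating cells, 0 were called in limma, 1 was lower at an unadjusted p under 0.05 with 1.5-fold, and the median was −0.18, with 7 above 0 and 10 below. The median was −0.07 without P14-DH-1 and −0.29 without P14-DH-2. Both VH libraries lay below both DH libraries in 8 of the 17 and above them in 3, against 22.7% and 23.2% of all transcripts. Against the later ages, 4 were the more negative at P14 and 1 the more positive at an unadjusted p under 0.05, against 3.93% and 3.6%. The summed level was 431 and 373 FPKM in DH and 351 and 369 in VH, so that both VH sums were the lower, by a small margin for the second libraries. Whether these genes differed less than the myelin genes was not tested. Pdgfra, the growth factor receptor of precursors, was at 24.0 and 24.8 FPKM in DH and 29.4 and 28.3 in VH (0.23, adjusted p = 0.0937). Sox10, present through the whole lineage, was at 25.9 and 22.9 FPKM in DH and 18.2 and 19.6 in VH (−0.35, adjusted p = 0.126). Enpp6, a marker of newly formed oligodendrocytes, was at 18.7 and 16.8 FPKM in DH and 8.75 and 12.9 in VH (−0.69, adjusted p = 0.151). Pdgfra was thus slightly above DH in both VH libraries, and Enpp6 below DH in both. These 3 were picked after their values were seen, as the lineage's usual stage markers. Of 22 genes of cholesterol synthesis, a supply line of myelin membrane, 21 were below 0, against 48.6% of all transcripts. The median was −0.16. In limma 1 was called lower and 0 higher, against 1.82% and 1.72% of all transcripts. The counts were the same at an unadjusted p under 0.05 with 1.5-fold. Without P14-DH-1 or P14-DH-2 no cholesterol gene was called, and without P14-VH-1 2 were. The cholesterol median was −0.09 without P14-VH-1 and −0.29 without P14-VH-2.

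No other non-neuronal cell type gave a call. For 16 astrocyte, 18 microglia, 14 endothelial, 12 pericyte and smooth muscle, 14 meningeal, 14 choroid plexus, 10 ependymal and 7 blood genes the count was 0 in limma, and at an unadjusted p under 0.05 with 1.5-fold 3 meningeal and 1 choroid plexus gene were higher and 1 meningeal gene lower. Their medians lay between −0.12 and 0.03, apart from the ependymal list at 0.43, where 9 of 10 were above 0 against 50.1% of all transcripts. In 8 of these 10 ependymal genes both VH libraries lay above both DH libraries, against 23.2% of all transcripts. The meningeal median was −0.11, and −0.26 without P14-DH-1. Without P14-DH-1 the ependymal median was 0.21 and the blood median −0.45, and the blood median turned to 0.21 without P14-DH-2 and 0.08 without P14-VH-1. Gfap, the intermediate filament of astrocytes, was at 314 and 349 FPKM in DH and 201 and 256 in VH (−0.54, adjusted p = 0.0614). Aif1, a marker of microglia, was at 23.2 and 26.2 FPKM in DH and 19.8 and 26.1 in VH, and Cldn5, the endothelial tight junction protein, at 88.7 and 89.5 in DH and 80.6 and 81.8 in VH. Ttr, the transport protein that marks choroid plexus, was at 3.45 and 10.0 FPKM in DH and 5.82 and 18.8 in VH, so that the second library of each region was the higher. Summed over the choroid plexus list the level was 12.7 and 23.2 FPKM in DH and 18.4 and 32.4 in VH, and over the blood list 710 and 1159 in DH and 708 and 949 in VH. Without P14-VH-2, 1 astrocyte gene was called lower and 1 meningeal gene higher. The part of these cells in the other results was not tested.

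**Figure D3:**
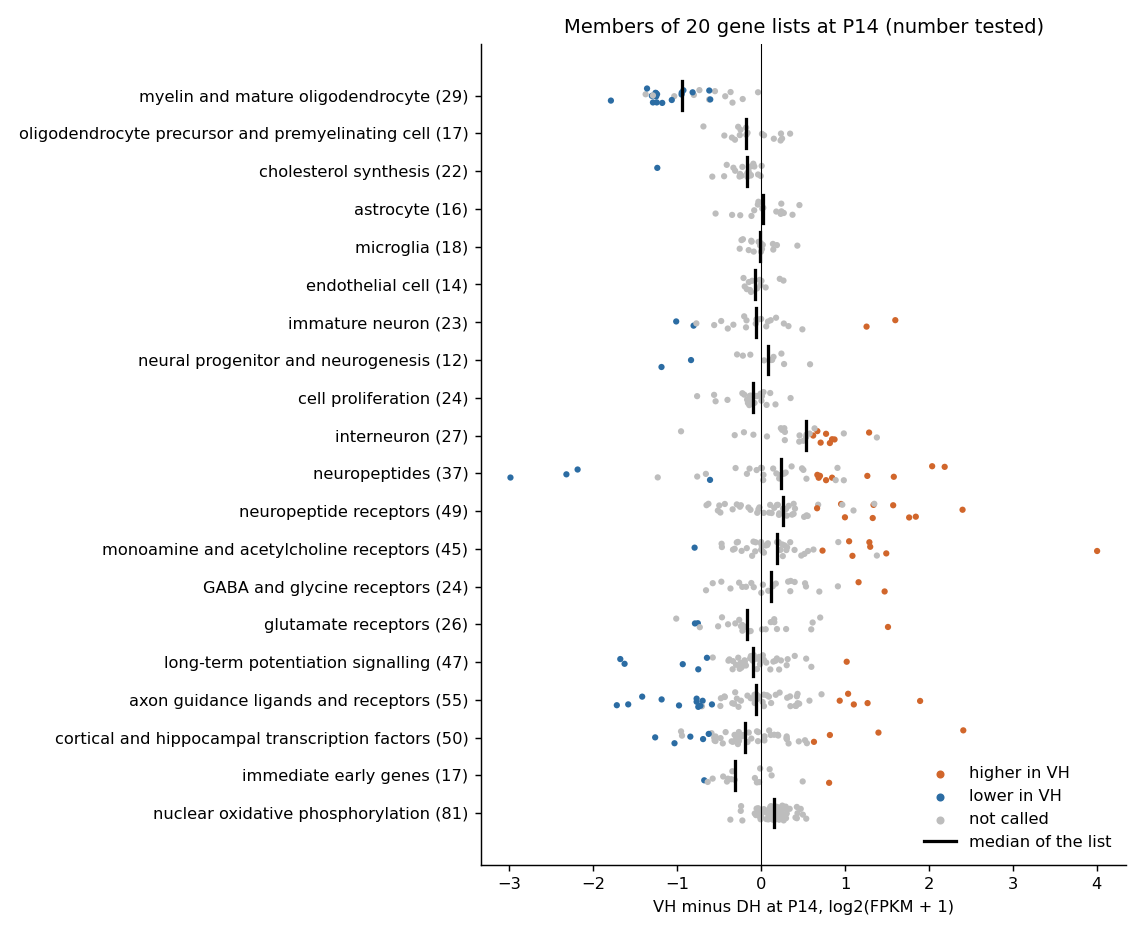
Each point is a gene of 1 of 20 lists, with VH minus DH at P14 on the log2(FPKM + 1) scale on the horizontal axis and the number of genes tested in brackets. The black bar is the median of a list. Myelin genes lie to the left with a median of −0.95 and interneuron genes to the right with a median of 0.54. The medians of the other lists shown lie between −0.31 and 0.26. Over all lists of the report, those of ependyma (0.43), neocortex (0.36) and CA1 (−0.39) also lie outside that range.

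Genes of immature neurons were called in both directions. Of 23 tested, 2 were called higher and 2 lower in VH, against 1.72% and 1.82% of all transcripts, 10 were above 0 and 13 below, and the median was −0.06. The summed level was 5319 and 5258 FPKM in DH and 6480 and 5891 in VH, so that both VH sums were the higher. Nnat, whose values follow, held most of that gap, so the P14 sums do not speak for the list as a set. At P28 the sums were 2536 and 2423 in DH and 3418 and 3476 in VH, and at P45 2009 and 2156 against 3004 and 3115. Calb2, calretinin, labels young granule cells and also interneurons and thalamic neurons, and it was in the mossy cell list too. It was at 17.2 and 26.8 FPKM in DH and 72.6 and 62.2 in VH (1.60, SE 0.23, adjusted p = 0.00869). Nnat, a small membrane protein of developing neurons, was at 505 and 617 FPKM in DH and 1522 and 1171 in VH (1.26, SE 0.19, adjusted p = 0.00979). Igfbpl1, expressed in newborn neurons, was at 14.4 and 14.7 FPKM in DH and 5.87 and 7.68 in VH (−1.01, SE 0.15, adjusted p = 0.00979). The duplicates of these 3 genes stood close together next to the distance between regions. Neurod1, a transcription factor of newborn granule cells, was at 64.3 and 68.1 FPKM in DH and 32.4 and 43.3 in VH (−0.80, SE 0.16, adjusted p = 0.0251). Dcx, the microtubule protein used to define immature neurons, was at 27.9 and 27.1 FPKM in DH and 21.2 and 27.7 in VH (−0.17, SE 0.16, adjusted p = 0.657). Sox11 was at 26.0 and 25.4 FPKM in DH and 16.3 and 20.3 in VH (−0.48, SE 0.15, adjusted p = 0.107).

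Against the later ages the immature neuron list leaned toward DH at P14. Its median was 0.15 at P28 and 0.13 at P45, and the P14 difference was the more negative, at an unadjusted p under 0.05, in 8 of 23 genes against 3.93% of all transcripts, while 0 were the more positive against 3.6%. None passed at an adjusted p under 0.05. Tubb2b, a beta-tubulin of growing axons, was at 605 and 565 FPKM in DH and 584 and 542 in VH at P14, with a difference of −0.06 at P14, 0.41 at P28 and 0.62 at P45 (change −0.57, adjusted p = 0.189). Dcx had differences of −0.17, 0.65 and 0.46 at the 3 ages (change −0.73, adjusted p = 0.417). Both were near equal between regions at P14 and above 0 at the later ages. The calls of the immature neuron list were 0 and 0 without P14-DH-1 and without P14-VH-1, 2 higher and 0 lower without P14-DH-2, and 2 higher and 3 lower without P14-VH-2.

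Of 12 progenitor genes 2 were called lower, against 1.82% of all transcripts, and 0 higher in limma, with the same counts at an unadjusted p under 0.05 with 1.5-fold. Lpar1, a lysophosphatidic acid receptor that oligodendrocytes also express, was at 13.3 and 11.0 FPKM in DH and 4.59 and 4.95 in VH (−1.19, SE 0.28, adjusted p = 0.0463). Hopx, a marker of quiescent dentate stem cells, was at 23.4 and 28.1 FPKM in DH and 11.7 and 16.6 in VH (−0.83, SE 0.18, adjusted p = 0.0371). The list's median was 0.08, and its summed level was 625 and 664 FPKM in DH and 749 and 745 in VH, the opposite direction to both calls. Without P14-DH-1, P14-DH-2 or P14-VH-1 neither gene was called, while 1 was without P14-VH-2. Of 24 proliferation genes 0 were called in limma, and 1 was lower at an unadjusted p under 0.05 with 1.5-fold. Mki67, the antigen of dividing cells, was at 1.28 and 1.16 FPKM in DH and 1.26 and 1.17 in VH. Without P14-VH-2, 1 proliferation gene was called lower.

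Interneuron genes leaned toward VH. These cells make GABA, arise from the ganglionic eminences and are divided into types by the peptides and calcium-binding proteins they hold. Of 27 tested, 8 were called higher against 1.72% of all transcripts and none lower, 23 were above 0, and the median was 0.54. In 20 of the 27 both VH libraries lay above both DH libraries, against 23.2% of all transcripts. Lhx6, the transcription factor of interneurons from the medial ganglionic eminence, was at 2.61 and 4.14 FPKM in DH and 10.4 and 8.68 in VH (1.29, SE 0.21, adjusted p = 0.0132). Nos1, the neuronal nitric oxide synthase, was at 3.71 and 3.65 FPKM in DH and 7.86 and 7.31 in VH (0.87, SE 0.18, adjusted p = 0.029). Sst, the peptide somatostatin, was at 92.3 and 131 FPKM in DH and 202 and 196 in VH (0.85, SE 0.16, adjusted p = 0.0211). All 3 were higher in both VH libraries. Gad1, a synthetic enzyme of GABA, was at 74.1 and 70.2 FPKM in DH and 119 and 105 in VH (0.62, SE 0.11, adjusted p = 0.0185). Dlx1, a transcription factor of migrating interneurons, was at 7.89 and 8.47 FPKM in DH and 16.6 and 13.9 in VH (0.82, SE 0.10, adjusted p = 0.00552). Pvalb, which marks the fast-spiking basket cells, was at 104 and 87.3 FPKM in DH and 79.1 and 86.4 in VH (−0.20, SE 0.11, adjusted p = 0.377) and stood below DH by a small margin. Nxph1 and Cck were also called higher. The list's median was 0.39 at P28 and 0.32 at P45, and the number called higher at P14 was 2 without P14-DH-1, 6 without P14-DH-2, 3 without P14-VH-1 and 6 without P14-VH-2. Prox1, also a factor of granule cells, was the lowest of the list at −0.95, and 1 gene of the list was called lower without P14-VH-2, with quantile normalization and when only transcripts averaging 1 FPKM or more were tested.

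Neuropeptides were among the strongest differences in both directions. Peptides are released from dense-core vesicles and act on G protein-coupled receptors, often at some distance. Of 37 peptide and granin genes tested, 9 were called higher and 4 lower in VH, against 1.72% and 1.82% of all transcripts, and the median was 0.24. Grp, gastrin-releasing peptide, was at 4.32 and 4.40 FPKM in DH and 32.9 and 16.6 in VH (2.19, SE 0.32, adjusted p = 0.00926). Nppa, atrial natriuretic peptide, was at 0.936 and 3.37 FPKM in DH and 11.3 and 10.6 in VH (2.04, SE 0.36, adjusted p = 0.018). Penk, the enkephalin precursor, was at 6.11 and 9.04 FPKM in DH and 23.8 and 24.7 in VH (1.58, SE 0.18, adjusted p = 0.00423). Grp was the most spread of these in VH and Penk the least. Adcyap1, which encodes the peptide PACAP, was at 3.93 and 5.33 FPKM in DH and 13.6 and 11.4 in VH (1.27, SE 0.19, adjusted p = 0.00979). Toward DH, beside Nmb, stood Cartpt, the CART peptide, at 7.19 and 11.3 FPKM in DH and 0.453 and 1.79 in VH (−2.32, SE 0.34, adjusted p = 0.00964). Nts, neurotensin, was at 63.0 and 45.6 FPKM in DH and 7.04 and 16.9 in VH. Chgb, a granin that packs the vesicles, was at 566 and 560 FPKM in DH and 354 and 385 in VH (−0.61, SE 0.09, adjusted p = 0.00899).

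Against the later ages 8 of the 37 peptides had the more positive difference at P14 at an unadjusted p under 0.05, where 3.6% of all transcripts did, and 0 the more negative, against 3.93%. None passed at an adjusted p under 0.05. Penk had differences of 1.58 at P14, 0.66 at P28 and 0.81 at P45 (change 0.85, adjusted p = 0.401), and Adcyap1 of 1.27, 0.61 and 0.40 (change 0.76, adjusted p = 0.448). Both stayed above 0 at each age. The numbers of peptides called were 2 higher and 2 lower without P14-DH-1, 6 and 1 without P14-DH-2, 4 and 2 without P14-VH-1, and 8 and 4 without P14-VH-2.

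The promoters of the peptide genes were searched for TGACGTCA, the palindromic cAMP response element, which CREB binds and through which activity and cAMP are known to raise peptide genes such as somatostatin. A promoter was given for 24 of the 37 genes, and 4 (16.7%) held it, as did 1.83% of all promoters in the table and 2.97% of those of the genes tested. All 4 belonged to called genes, with Sst, Vgf and Scg2 higher in VH and Cartpt lower, and 0 of the 13 promoters of peptide genes not called held it. Over all called genes, 4 of 183 promoters of those higher in VH (2.19%) and 6 of 210 of those lower (2.86%) held it. The element began 90 bases before the start of Vgf, 123 before that of Scg2 and 142 before that of Cartpt, and 2 bases after the annotated start of Sst. The stretches around it are shown with the element in capitals, 5′ to 3′ along the gene (RefSeq, GRCr8).
Sst, chr11:90461537-90461566, plus strand: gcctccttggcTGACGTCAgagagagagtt
Vgf, chr12:25277057-25277156, minus strand: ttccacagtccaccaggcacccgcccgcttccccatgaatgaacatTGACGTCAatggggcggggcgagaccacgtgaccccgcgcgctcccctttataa
Scg2, chr9:88256936-88257035, minus strand: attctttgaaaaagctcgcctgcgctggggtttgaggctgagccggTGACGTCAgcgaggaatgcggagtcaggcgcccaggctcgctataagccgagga
Cartpt, chr2:32991324-32991423, minus strand: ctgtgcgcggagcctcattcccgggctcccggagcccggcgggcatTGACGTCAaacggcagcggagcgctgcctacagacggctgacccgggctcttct
Vgf, a secreted neurotrophin-induced protein, was at 40.2 and 41.7 FPKM in DH and 74.7 and 59.1 in VH (0.69, SE 0.13, adjusted p = 0.0207). Scg2, a granin, was at 176 and 184 FPKM in DH and 304 and 284 in VH (0.70, SE 0.09, adjusted p = 0.00533). Both were named for the element after the values were seen. The element is thus in genes of both directions.

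Receptors for peptides leaned toward VH. Of 49 tested, 34 were above 0 against 50.1% of all transcripts, 9 were called higher against 1.72% and none lower against 1.82%, with 1 lower at an unadjusted p under 0.05 with 1.5-fold in limma, and the median was 0.26. Tacr3, the receptor of neurokinin B, was at 1.69 and 0.872 FPKM in DH and 15.4 and 7.56 in VH (2.40, SE 0.31, adjusted p = 0.00606). Npr3, the clearance receptor of natriuretic peptides, was at 0.284 and 0.675 FPKM in DH and 4.73 and 3.83 in VH (1.84, SE 0.23, adjusted p = 0.00581). Trhr, the receptor of thyrotropin-releasing hormone, was at 0.727 and 1.02 FPKM in DH and 7.14 and 3.94 in VH (1.76, SE 0.35, adjusted p = 0.0261). These 3 receptors were near 1 FPKM or below it in DH. Npy2r, a presynaptic receptor of neuropeptide Y, was at 6.38 and 9.79 FPKM in DH and 26.8 and 24.4 in VH (1.57, SE 0.23, adjusted p = 0.00915). The other called receptors were Sstr1, Rxfp3, Mchr1, Oprl1 and Crhr2, of which Crhr2 is listed at 0 in both DH libraries. The number called higher was 2 without P14-DH-1, 6 without P14-DH-2, 4 without P14-VH-1 and 10 without P14-VH-2, where 1 was also called lower. At both P28 and P45, 3 peptide receptors were called lower.

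Among the pairs of peptide and receptor named here, few were called together, and pairs were not counted over the whole lists. Sst and its receptor Sstr1 were both higher in VH, as were Nppa and its clearance receptor Npr3, while the signalling receptor Npr1 was at 2.91 and 2.12 FPKM in DH and 1.78 and 1.74 in VH (−0.34, adjusted p = 0.194). Tac3, the precursor of neurokinin B, was at 28.3 and 28.1 FPKM in DH and 13.9 and 22.0 in VH (−0.66, adjusted p = 0.158), the opposite sign to its receptor Tacr3. For the bombesin-like peptides, the receptors Grpr and Nmbr differed by 0.39 and 0.28 (adjusted p = 0.598 and 0.553) while their ligands Grp and Nmb were called in opposite directions. Trh, at 1.09 and 0.144 FPKM in DH and 0.484 and 0.633 in VH, did not follow Trhr. Ntsr2, the glial neurotensin receptor, was at 33.9 and 46.6 FPKM in DH and 21.6 and 29.8 in VH (−0.63, adjusted p = 0.0846), the same sign as Nts. Adcyap1r1 (NM_001270582), the partner of Adcyap1, differed by 0.21 (adjusted p = 0.526) and was not called.

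Receptors for serotonin, acetylcholine, dopamine, noradrenaline and histamine also leaned toward VH. Of 45 tested, 30 were above 0 against 50.1% of all transcripts, and 7 were called higher against 1.72% and 1 lower against 1.82%. The median was 0.19. It was 0.10 without P14-DH-1 and 0.12 without P14-VH-1, where 25 were above 0 and 18 below. After Htr2c came Hrh3, the presynaptic histamine receptor, at 3.26 and 5.82 FPKM in DH and 15.0 and 13.4 in VH (1.49, SE 0.22, adjusted p = 0.00989). Adra2a, an inhibitory adrenergic receptor, was at 1.22 and 1.71 FPKM in DH and 5.85 and 4.32 in VH (1.30, SE 0.23, adjusted p = 0.0184). Htr2a, the serotonin 2A receptor, was at 2.43 and 2.76 FPKM in DH and 8.43 and 7.16 in VH (1.29, SE 0.26, adjusted p = 0.0267). In these receptors the 2 regions did not overlap. Chrm3, a muscarinic receptor, was the single one lower in VH, from 38.5 and 34.8 FPKM in DH to 19.9 and 21.6 in VH (−0.79, SE 0.08, adjusted p = 0.00339). The remaining calls were Chrm5, Adra1d and Chrna7. Without P14-DH-1, P14-DH-2, P14-VH-1 and P14-VH-2 in turn, 2, 3, 2 and 7 were called higher, and Chrm3 stayed the 1 called lower in each.

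**Figure D4:**
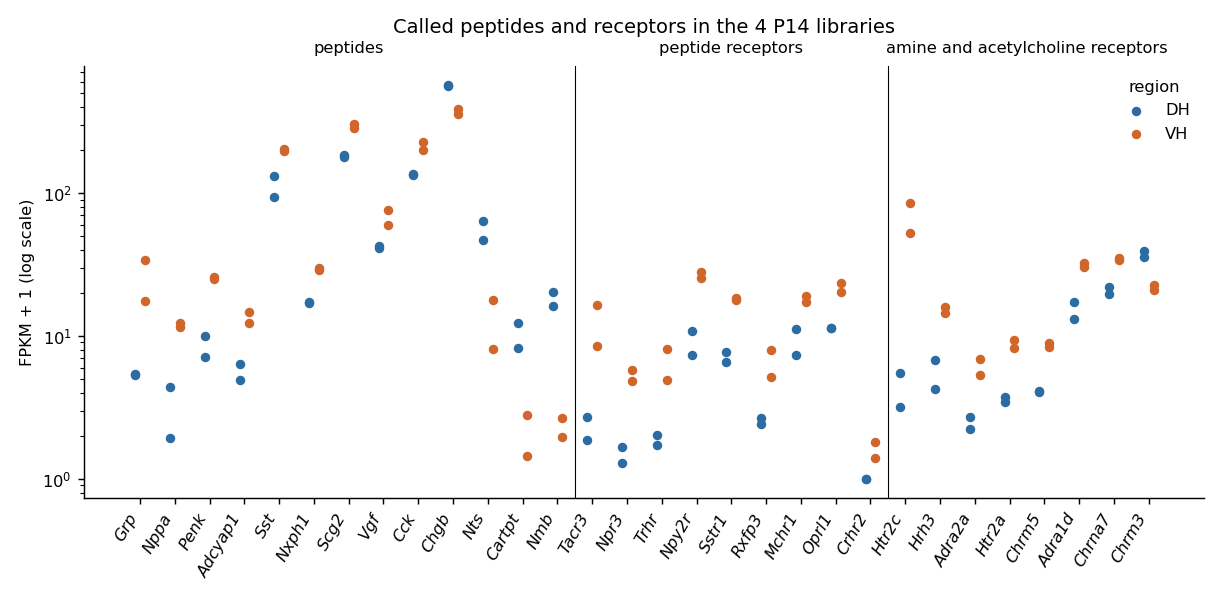
FPKM + 1 on a log scale in the 2 DH and 2 VH libraries at P14 for every called peptide, peptide receptor and receptor of amines or acetylcholine. Orange VH points lie above blue DH points for all 9 peptide receptors, while among the peptides Chgb, Nts, Cartpt and Nmb lie below.

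Axon guidance genes were called in both directions. Among those called, the receptors were lower in VH and the ephrins and Slit2 higher, a grouping made after the values were seen. Ephrins and their Eph receptors, and Slit proteins and their Robo receptors, repel growing axons on contact or at a distance and set up topographic maps. Of 55 tested, 11 were called lower and 5 higher in VH, against 1.82% and 1.72% of all transcripts, and the median was −0.06. The median was −0.02, −0.04, −0.14 and 0.06 without P14-DH-1, P14-DH-2, P14-VH-1 and P14-VH-2 in turn. Efna5, a membrane-anchored ephrin, was at 1.01 and 1.52 FPKM in DH and 9.97 and 5.38 in VH (1.89, SE 0.38, adjusted p = 0.0275). Its receptor Epha7 was at 88.0 and 74.2 FPKM in DH and 20.4 and 33.8 in VH (−1.58, SE 0.25, adjusted p = 0.0114). Epha5, another receptor of it, was at 79.7 and 68.4 FPKM in DH and 27.0 and 37.8 in VH (−1.18, SE 0.18, adjusted p = 0.00999). The ligand and its receptors were thus high at opposite poles. Slit2 was at 9.32 and 9.50 FPKM in DH and 24.6 and 18.6 in VH (1.10, SE 0.14, adjusted p = 0.00638), while the receptor Robo1 was at 36.8 and 36.1 in DH and 20.2 and 21.8 in VH (−0.77, SE 0.08, adjusted p = 0.00314) and Robo2 at 28.7 and 26.1 in DH and 16.3 and 19.7 in VH (−0.59). Efnb2, a transmembrane ephrin, was at 8.26 and 10.4 FPKM in DH and 27.7 and 20.3 in VH (1.27, SE 0.18, adjusted p = 0.00899). Ephb1, Ephb2 and Epha4 were called lower and Efnb3 higher.

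The semaphorins called were both lower in VH. Sema3c, a secreted guidance factor, was at 110 and 95.1 FPKM in DH and 23.8 and 38.6 in VH (−1.72, SE 0.24, adjusted p = 0.00838). Sema7a, a membrane-anchored one, was at 152 and 141 FPKM in DH and 49.8 and 59.0 in VH (−1.42, SE 0.11, adjusted p = 0.00182). Both were more than 2-fold lower in VH. Of the Sema3c receptors, Nrp1 differed by −0.32 (adjusted p = 0.042), short of 1.5-fold, and Nrp2 by 0.12. Ntng1, netrin-G1, a ligand on axons that shapes synapses, was higher in VH at P14, from 2.98 and 3.80 FPKM in DH to 8.03 and 7.91 in VH, with differences of 1.04 at P14, 0.18 at P28 and −0.06 at P45 (change 0.98, adjusted p = 0.189). Without P14-DH-1, P14-DH-2, P14-VH-1 and P14-VH-2 in turn, 3, 8, 5 and 10 guidance genes were called lower and 1, 4, 2 and 7 higher.

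Transcription factors that pattern the cortex and hippocampus were called in both directions, 4 higher and 5 lower of 50, against 1.72% and 1.82% of all transcripts. Nr2f2, COUP-TFII, an orphan receptor of ventral and caudal forebrain, was at 4.31 and 7.49 FPKM in DH and 43.2 and 27.7 in VH, and its paralog Nr2f1 at 16.3 and 19.1 in DH and 32.0 and 24.3 in VH (0.63, SE 0.14, adjusted p = 0.04). Etv1, an ETS factor, was at 8.72 and 9.81 FPKM in DH and 28.6 and 23.6 in VH (1.40, SE 0.17, adjusted p = 0.00488). Dlx1, described with the interneurons, was the other higher one. Tbr1, a factor of glutamatergic neurons, was at 13.8 and 11.3 FPKM in DH and 4.42 and 4.83 in VH (−1.26, SE 0.11, adjusted p = 0.00286), Bcl11b at 34.1 and 31.1 in DH and 13.1 and 18.1 in VH (−1.03, SE 0.20, adjusted p = 0.0262), and Neurod2 at 81.0 and 76.0 in DH and 40.1 and 46.7 in VH (−0.84, SE 0.09, adjusted p = 0.00339). Neurod6 (−0.69) and Nfia (−0.62) were the other lower ones. Without P14-DH-1, P14-DH-2, P14-VH-1 and P14-VH-2 in turn, 2, 3, 3 and 5 of the list were called higher and 2, 2, 2 and 8 lower.

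Of 21 genes of retinoid signalling, the nuclear receptors Rxrg and Rxra were higher in VH and the retinoic acid-degrading enzyme Cyp26b1 lower, against 1.72% and 1.82% of all transcripts. Rxrg was at 2.37 and 2.90 FPKM in DH and 19.0 and 13.7 in VH (2.24, SE 0.17, adjusted p = 0.00182) and Rxra at 4.90 and 6.26 in DH and 13 and 11.9 in VH (1.04, SE 0.19, adjusted p = 0.0194). The other 18 were not called, and the median was −0.20. It was −0.30 without P14-VH-1 and −0.13 without P14-DH-2. Receptors of this family and COUP-TFs bind the half-site AGGTCA, which was in 15 of the 183 promoters of genes higher in VH (8.2%), 26 of 210 of genes lower in VH (12.4%), 12.5% of those of the genes tested and 16.2% of all in the table, counting both strands. Of the 20 retinoid genes with a promoter 2 held it, neither of them called. Without P14-DH-1 or P14-DH-2 only 1 retinoid gene was called, higher in VH.

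Genes of long-term potentiation, the lasting strengthening of synapses by calcium entry, were called lower in VH in 5 of 47 and higher in 1, against 1.82% and 1.72% of all transcripts. Adcy1, the calcium-stimulated adenylyl cyclase, was at 152 and 171 FPKM in DH and 40.6 and 60.6 in VH. Camk4, a nuclear calcium kinase, was at 86.6 and 78.5 FPKM in DH and 21.8 and 31.0 in VH (−1.63, SE 0.19, adjusted p = 0.00477). Camk2a, the abundant kinase of the postsynaptic density, was at 1619 and 1647 FPKM in DH and 938 and 1006 in VH. In all 3 the duplicates of a region were closer to each other than to the other region. Camk2d, a CaMKII subunit found in many tissues, was the 1 higher in VH, from 9.53 and 11.5 FPKM in DH to 24.0 and 20.6 in VH (1.02, SE 0.15, adjusted p = 0.00895). The list's median was −0.10, and −0.16 without P14-VH-2. Without P14-DH-1, P14-DH-2, P14-VH-1 and P14-VH-2 in turn 2, 3, 2 and 5 were called lower and 0, 2, 0 and 1 higher.

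Of 26 glutamate receptor genes 1 was called higher and 2 lower, and of 24 GABA and glycine receptor genes 2 and 0, against 1.72% and 1.82% of all transcripts. Grin3a, an NMDA receptor subunit of immature synapses, was at 1.95 and 1.76 FPKM in DH and 6.71 and 7.59 in VH (1.51, SE 0.25, adjusted p = 0.0134). Grin2a, the NMDA receptor subunit that increases with maturation, was at 50.1 and 58.8 in DH and 26.4 and 36.5 in VH. Both kept their sign later, Grin3a with differences of 1.59 at P28 and 0.46 at P45 and Grin2a of −0.88 and −0.66. No glutamate receptor gene was called without P14-DH-1, P14-DH-2 or P14-VH-1. Of the GABA receptor genes, Gabra3, a subunit prominent in the immature brain, was at 6.81 and 7.44 FPKM in DH and 25.2 and 18.4 in VH (1.47, SE 0.22, adjusted p = 0.00979). Its difference was 1.52 at P28 and 0.97 at P45. Gabrq, the theta subunit, is listed at 0 in both DH libraries and was at 1.51 and 0.989 FPKM in VH. The GABA calls numbered 0 higher without P14-DH-1, 1 without P14-DH-2 or P14-VH-1, and 3 higher and 3 lower without P14-VH-2.

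Voltage-gated channels were called in both directions, and the counts of this paragraph stand against 1.72% of all transcripts called higher and 1.82% lower. Of 44 potassium channel genes 4 were higher, led by Kcnf1, a silent subunit, at 4.31 and 7.79 FPKM in DH and 25.6 and 16.6 in VH (1.66, SE 0.28, adjusted p = 0.0162), and 3 were lower. Kcna1, a delayed rectifier of axons beside the nodes of Ranvier, was at 51.8 and 53.9 FPKM in DH and 34.5 and 34.1 in VH, with differences of −0.61 at P14, −0.32 at P28 and 0.05 at P45 (change −0.47, adjusted p = 0.417). Of 34 sodium and calcium channel genes 5 were lower, among them Scn4b at 4.11 and 3.81 FPKM in DH and 1.65 and 1.05 in VH (−1.09) and Cacna1a, the P/Q-type channel of nerve terminals, at 44.2 and 41.3 in DH and 23.6 and 25.7 in VH (−0.77). The T-type channels Cacna1g (0.59) and Cacna1i (0.60) were the 2 higher. Of 30 genes of synaptic maturation Arc (−0.68), Iqsec2 (−0.64) and Cplx2 (−0.59) were lower. Without P14-DH-1 the potassium channel calls were 3 and 0, the sodium and calcium channel calls 0 and 1 and the synaptic calls 0 and 1, higher and lower in VH.

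Among 17 immediate early genes, which neurons switch on with activity, 13 were below 0, with a median of −0.31, and only Arc, at 26.2 and 28.3 FPKM in DH and 16.4 and 16.9 in VH (−0.68, SE 0.11, adjusted p = 0.0139), and Fosl2, at 25.6 and 26.4 in DH and 48.8 and 44.0 in VH (0.81, SE 0.13, adjusted p = 0.012), were called, 1 in each direction against 1.72% and 1.82% of all transcripts. Neither was called without P14-DH-1, P14-DH-2 or P14-VH-1. Of 81 nuclear genes of oxidative phosphorylation 0 were called in limma and 0 passed at an unadjusted p under 0.05 with 1.5-fold, but 70 were above 0 against 50.1% of all transcripts, with a median of 0.16. Of 87 genes of cytosolic ribosomal proteins 0 were called by either criterion and the median was 0.03. Cadherins were called higher in 4 of 22, and matrix and interferon genes in 2 each as named below, against 1.72% of all transcripts. The cadherins were led by Pcdh11x at 1.56 and 2.05 FPKM in DH and 9.62 and 5.24 in VH (1.54, SE 0.28, adjusted p = 0.0207), and 0 of them were called without P14-DH-1, 2 without P14-DH-2, 1 without P14-VH-1 and 3 without P14-VH-2. Of 25 matrix genes Crtac1 (1.20) and Nell1 (0.90) were higher. Without P14-DH-1, P14-DH-2 or P14-VH-1 only 1 matrix gene was called, and 3 without P14-VH-2. Of 26 interferon and complement genes Mx1 and C4b were higher and the median was −0.02, C4b at 0.0309 and 0.0331 FPKM in DH and 1.75 and 0.742 in VH (1.08, SE 0.23, adjusted p = 0.034), and only 1 of the 26 was called without P14-DH-1, P14-DH-2 or P14-VH-1.

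Markers of the hippocampal subfields were called in 1 to 4 members per list, where 1.72% of all transcripts were called higher and 1.82% lower. Of 8 CA1 genes only Wfs1 was lower, with 6 below 0, a median of −0.39 and a summed level of 374 and 351 FPKM in DH and 247 and 270 in VH. The CA1 median went to −0.12 without P14-VH-1, with 4 genes on each side of 0, and to −0.73 without P14-VH-2. Of 8 CA3 genes Bok (−0.79) was lower, and the median was −0.15. Of 12 dentate granule cell genes Trpc6 (−1.08) and Il16 (−0.76) were lower, 8 were below 0 with a median of −0.26, which was −0.13 without P14-DH-2 and −0.14 without P14-VH-2, and both VH libraries lay below both DH libraries in 6 and above them in 0, against 22.7% and 23.2% of all transcripts. The granule cell sum was 310 and 356 FPKM in DH and 244 and 296 in VH. Prox1, the defining transcription factor of granule cells, was at 33.5 and 36.7 FPKM in DH and 13.4 and 23.1 in VH (−0.95, adjusted p = 0.0641). Among 9 CA2 genes Ntf3, neurotrophin 3, was lower at 9.96 and 11.3 FPKM in DH and 2.67 and 3.73 in VH (−1.48, SE 0.17, adjusted p = 0.00423), Rgs14 lower (−0.72) and Amigo2 higher (0.71). Of 10 mossy cell genes Calb2 and Tm4sf1 (0.68) were higher and Nmb lower, and of 10 subicular genes Etv1 and Slc17a6 (0.61) were higher and Nts and Scn4b lower. Without P14-DH-1, 0 CA1, 0 CA3 and 0 granule cell genes, 1 CA2 gene, 1 mossy cell gene and 1 subicular gene were called. Tissue next to the hippocampus was also checked. Of 9 thalamic genes 3 were higher and 1 lower, of 11 genes of striatum, amygdala and septum 1 and 1, and of 11 neocortical genes 2 and 1, against 1.72% and 1.82% of all transcripts. The neocortical list was led by Sulf1 at 0.522 and 0.573 FPKM in DH and 3.19 and 2.22 in VH (1.25). None of these genes was called without P14-DH-1. Without P14-DH-2 the 3 lists gave 1 and 0, 0 and 2, and 2 and 0, without P14-VH-1 1 and 0, 0 and 0, and 1 and 0, and without P14-VH-2 2 and 0, 1 and 1, and 2 and 1. The part of neighbouring tissue in the results was not tested.

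Most differences at P14 had the same sign at the later ages. Of the 245 transcripts higher in VH, 161 were called the same way at P28, which is 65.7% of the P14 calls and 54.9% of the P28 calls, and 133 at P45 (54.3% and 52.0%). Of the 260 lower ones, 149 were called at P28 (57.3% and 51.7%) and 106 at P45 (40.8% and 44.4%). At all 3 ages 115 and 95 were called, and 66 and 100 were called at neither later age. The sign was the same at P45 for 233 of the 245 and 219 of the 260. The medians of the 2 sets were 0.95 and −0.83 at P14, where they were chosen, 0.85 and −0.69 at P28 and 0.74 and −0.55 at P45.

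**Figure D5:**
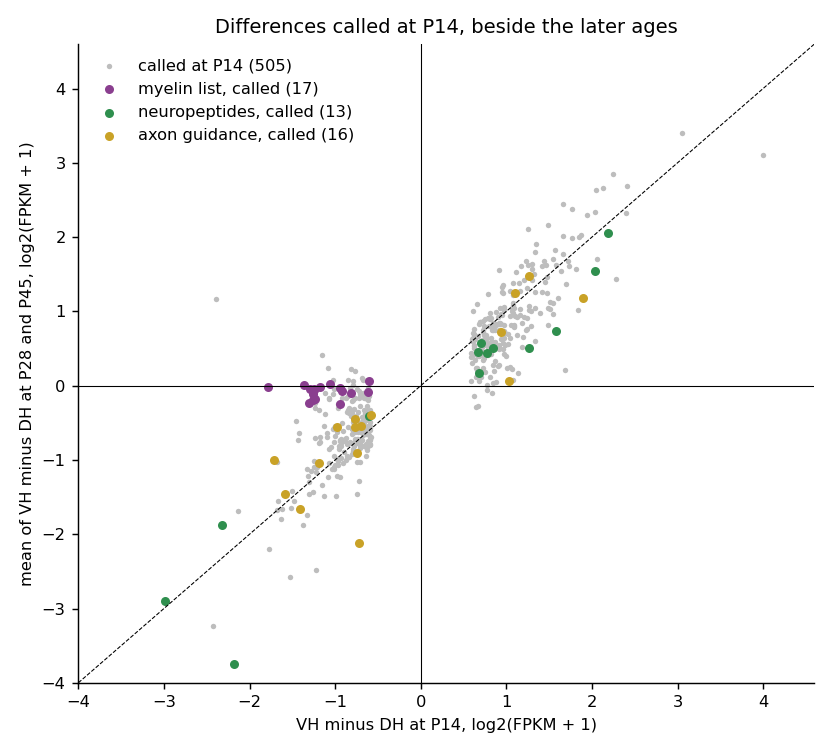
VH minus DH at P14 on the horizontal axis and the mean of that at P28 and P45 on the vertical axis, both on the log2(FPKM + 1) scale, for the 505 transcripts called at P14. The dashed line marks equal differences. The 17 called myelin genes lie along the horizontal line at 0, while the 13 called peptides and 16 called guidance genes keep their sign, with Ntng1 and Vgf near 0.

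Tested directly, few transcripts had a P14 difference unlike that of the later ages. Against P28 there were 2 at an adjusted p under 0.05 (0.014%), against P45 4 (0.0281%) and against the mean of both 1 (0.00701%), with 932, 1181 and 1074 at an unadjusted p under 0.05 (6.54%, 8.28% and 7.53%). The only one of them above 10 FPKM was Bcar1, a scaffold of integrin signalling, at 43.9 and 44.2 FPKM in DH and 31.0 and 31.5 in VH at P14, 28.4 and 29.6 in DH and 29.2 and 28.3 in VH at P28, and 26.3 and 26.3 in DH and 28.5 and 30.1 in VH at P45 (change from P45 −0.63, adjusted p = 0.047). At P14 the DH libraries were thus the highest of the 12 and the VH libraries next. Its P14 difference was −0.48 (adjusted p = 0.00305), short of 1.5-fold. The change against P45 was lost when only transcripts averaging 1 FPKM or more were tested, with quantile normalization and with summed transcripts. In these no transcript passed against P45 at an adjusted p under 0.05.

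Transcripts regulated by age were also set beside the regional difference. They were ranked by the change from P28 to P45 divided by its standard error in the fit of all 12 libraries. The P14 levels had no part in that change, but the spread of the P14 duplicates entered its error. The P14 calls use the same error, so transcripts of small spread are favoured in both. The shares called below are therefore not independent of the choice. Of the 200 that rose most from P28 to P45, 21 (10.5%) were called lower in VH at P14 and 0 higher in limma, 130 were below 0 and the median was −0.104. Of the 200 that fell most, 19 (9.5%) were called higher and 11 (5.5%) lower, 122 were above 0 and the median was 0.074. Over the 11190 transcripts that averaged 1 FPKM or more, 2.04% were called higher and 2.26% lower and the median was −0.001. With the 100 or 500 most regulated, the medians were −0.061 and −0.061 for those that rose and 0.078 and 0.039 for those that fell. The share of risers called lower was then 6% and 6.8%, and that of fallers called higher 12% and 8.4%.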

How the data were processed

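The authors made poly-A libraries from DH and VH RNA of rats of 3 ages, 2 libraries per region and age, and aligned the reads to rn5. The submitters' processing notes name SAMtools 0.1.19, Bowtie2 2.1.0, TopHat2 2.0, Cufflinks 2.2.1 and R 3.3.0. The deposited values are FPKM per RefSeq transcript for all 12 libraries in 1 table. The authors state a TMM scaling that the values do not show by themselves. Counting errors cannot be had from FPKM, and library depths stated by the study were not used here. Low values were tested for whole multiples of 1 read, and 77.3% of 14151 ratios came within 0.1 of a whole number where 20% would by chance. Most low values thus lay near whole multiples, and the rest did not. Counts were not rebuilt from them and no count test was run.

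Of 17933 transcripts, 14259 above 0 in at least 2 libraries were tested with limma 3.58.1 in R 4.3.3 on log2(FPKM + 1), with the 6 groups of region and age as means, 6 residual degrees of freedom and eBayes with a trend. All 12 libraries entered the fit, so that the spread at P28 and P45 also sets the error at P14. A transcript was called at a Benjamini-Hochberg adjusted p under 0.05 and a fold change of FPKM + 1 above 1.5. The change between ages was a contrast in the same fit. VH against DH at P14 was also run on simulated data of 14259 transcripts. Changes were put only into transcripts averaging 1 FPKM or more. Of 100 with a log2 change of 1, 83 were called, of 100 with a log2 change of 2, 94, and 4 unchanged ones. The simulated noise was independent between libraries and transcripts. It held no shift shared by a library, such as the more extreme first libraries described above. These counts therefore do not give the error rate of the real calls.

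The gene lists and the choice of P14 were made with earlier results of these data known. Genes were named by rule, namely the 12 largest differences in each direction, up to 4 called members per list and direction, defining cell type markers, the 8 smallest p of the change between P14 and the later ages, the regional markers, Actb and Gapdh, and the partner of a named peptide or receptor. Other genes named are examples of lists and were chosen after their values were seen. Transcripts of 1 gene can share reads, and 1303 transcripts share a symbol with another. Alternatives were another pseudocount (0.1), a mean of at least 1 FPKM, no filter, quantile normalization, no trend, a replicate block, summed transcripts, the P14 libraries alone, a treat test, stricter thresholds and leaving out each library. Symbols are those of the deposited table, and promoters were matched by symbol to RefSeq (GRCr8). Scripts used Python 3.11.15, NumPy 2.4.6, pandas 2.3.3 and matplotlib 3.10.9. Some members of the lists are counted but not reported here by name.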

Additional observations from a re-analysis of the deposited data

Results flagged for a closer look

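The difference between VH and DH at P14 differed from that at a later age, by the contrast between ages in limma, in 6 transcripts. Bcar1 changed from P45 by −0.63 (adjusted p = 0.047), with the values per library given above, and did not pass under several of the alternatives. The other 5 were below 3 FPKM in every library. Cthrc1 (NM_001271300), a secreted collagen triple helix protein, changed by 1.21 from P28 (adjusted p = 0.00964) and by 0.92 from the mean of both later ages (adjusted p = 0.0244). It was at 0.639 and 0.487 FPKM in VH at P14, at 0.43 and 0.527 in DH at P28 and under 0.001 in the other 8 libraries, and with its 2 transcripts summed the P14 difference was −0.09. Plec (NM_001164297), a cytoskeletal linker, changed by −1.55 from P45 (adjusted p = 0.0301) and was at 1.58 and 2.34 FPKM in VH at P45. Il21, an interleukin, changed by −0.80 from P45 (adjusted p = 0.0107) and is listed at 0 in all libraries but those of VH at P45, at 0.745 and 0.747 FPKM. Ntf3 (NM_001270868) changed by 0.61 from P45 (adjusted p = 0.0301) and was at 0.544 and 0.512 FPKM in DH at P45. Tnp2, a chromatin protein of sperm cells, changed by −0.62 from P28 (adjusted p = 0.0318) and is listed at 0 in all libraries but those of VH at P28, at 0.547 and 0.537 FPKM.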

How the results depend on the processing

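With 2 libraries per group, the number of calls depended on single libraries. Leaving out 1 library in turn gave 53 to 269 transcripts higher and 59 to 301 lower in VH at P14. Calls numbered 133 and 166 with a replicate block, 89 and 102 at an adjusted p under 0.01, 108 and 83 above 2-fold, and 0 and 0 both in the P14 libraries alone and in a treat test against 1.5-fold, where 380 and 383 and then 158 and 135 passed at an unadjusted p under 0.05. For the treat test the construction is stricter, and the P14 libraries alone leave 2 residual degrees of freedom. The other alternatives kept both counts within 1.5 times. Transcripts that changed between P14 and P28, P45 and the mean of both numbered 0, 0 and 0 with a mean of at least 1 FPKM, with a replicate block and with summed transcripts, 1, 0 and 0 with quantile normalization and at an adjusted p under 0.01, 1 and 1 against P28 and P45 without a trend, and 10 and 8 against P45 and the mean with a pseudocount of 0.1. Leaving out 1 library gave 0 to 9, 1 to 10 and 1 to 10. The cause was not tested. The labels do not say whether equal replicate numbers mark the same rats, so the libraries were treated as unpaired. The duplicates' deviations in DH and VH correlated at 0.0752, 0.0981 and 0.1113 at P14, P28 and P45. With the block, 121 and 156 of its calls were also called without it, and 5 myelin genes were called in place of 17. Without the trend, filter or with quantile normalization, 139 to 141 of the 142 named transcripts kept their side of the threshold, against 54 without P14-DH-1. Signs turned in small differences. Trh (NM_013046) went to −0.017 with quantile normalization and ranged from −0.424 to 0.444 when 1 library was left out, and Cthrc1 (NM_001271300) went to −0.087 with summed transcripts. The ranges over left-out libraries were −0.043 to 0.036 for Mki67 (NM_001271366), −0.112 to 0.049 for Ntsr1 (NM_001108967), −0.358 to 0.011 for Dcx (NM_053379) and −0.304 to 0.079 for Aif1 (NM_017196), and Ttr (NM_012681) had its lowest value at −0.038.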

Other observations

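Among the 8 transcripts with the smallest p for the change from the later ages, RT1-CE6, a class I histocompatibility gene, was at 1.15 and 0.916 FPKM in DH and is listed at 0 in VH at P14 (change −1.10, adjusted p = 0.077). Npm2, a histone chaperone of the egg, is listed at 0 in DH at P14 (change 0.48, adjusted p = 0.125). Nfasc (NM_053909), a cell adhesion molecule of nodes and axon initial segments, changed by −0.96 (adjusted p = 0.189), from 30.3 and 28.8 FPKM in DH and 16.8 and 17.0 in VH at P14 to differences of 0.12 at P28 and 0.26 at P45.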
